A study of Mus musculus with 7 samples.

Results

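The probes described here are those of a microRNA array whose target carries the seed of mouse miR-18 or miR-19, in CD4 T cells before and after activation in a host mouse. The seed is bases 2 to 8 of a miRNA, the stretch through which it recognises most of its target mRNAs. A probe was a member when bases 2 to 8 of its target were equal to those of mouse miR-18a-5p (shared by miR-18b-5p) or of miR-19a-3p (shared by miR-19b-3p). The rule found 11 of 1874 probes, 7 with the miR-18 seed and 4 with the miR-19 seed. The rule reads sequence alone.

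All cells were DO11.10 CD4 T cells, whose transgenic receptor recognises an ovalbumin peptide, from spleen and lymph nodes of Balb/c mice aged 6 to 8 weeks. Naive cells (2 arrays) were sorted as CD25- and CD44 low from DO11.10 Rag2+/+ mice. Activated cells came from DO11 Rag2-/- donors, were moved into a WT Balb/c host (WT host, 2 arrays) or an sOVA host (3 arrays), and were sorted as CD44 high 5 days later. The hosts had received dendritic cells pre-activated with LPS and loaded with the peptide 24 h after transfer. The sample titles call the first host OVA immunized and the second sOVA immunized, so any difference in immunization cannot be told apart from the host, nor can the donors' Rag2 genotype and the sort from activation. Mice were pooled and the labels do not call the replicates separate pools. The spread behind each p-value may therefore be technical.

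miR-18 and miR-19 are made together. The transcript of the miR-17 to miR-92a cluster folds into a row of hairpins, each of which is cut to a miRNA, and a paralogous cluster on the X chromosome holds miR-106a, miR-18b, miR-20b, miR-19b, miR-92a and miR-363. Within these clusters the seeds of miR-17, miR-18, miR-19 and miR-92 define separate families. The cluster is known to support division and survival of lymphocytes.

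The mature sequences, from RefSeq on build GRCm38.p6, are shown with the seed in capitals because the comparison turns on these 7 bases. The seed was found in no other mature mouse miRNA of the RefSeq table used here than those listed.
miR-18a-5p: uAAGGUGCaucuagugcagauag
miR-18b-5p: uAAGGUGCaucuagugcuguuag
miR-19a-3p: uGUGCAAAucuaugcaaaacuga
miR-19b-3p: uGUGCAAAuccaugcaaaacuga

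miR-18a-5p lies at chr14:115043867-115043889, miR-19a-3p at chr14:115044048-115044070 and 1 copy of miR-19b-3p at chr14:115044358-115044380, all on the plus strand. miR-18b-5p lies at chrX:52742381-52742403 and the other copy of miR-19b-3p at chrX:52741991-52742013, both on the minus strand. A signal of miR-19b cannot be assigned to either locus. The hairpins of miR-18a and of the chromosome 14 copy of miR-19b show where the members sit, with the mature miRNA in capitals: miR-18a is cut from the 5′ arm and miR-19b from the 3′ arm.
Mir18: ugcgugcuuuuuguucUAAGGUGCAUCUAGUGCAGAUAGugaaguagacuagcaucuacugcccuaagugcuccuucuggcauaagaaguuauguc
Mir19b-1: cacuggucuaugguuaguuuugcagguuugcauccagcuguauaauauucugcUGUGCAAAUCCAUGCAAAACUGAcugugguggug

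The targets of the member probes, read as the reverse complement of the probe, are written as DNA. They are shown whole because they differ by so few bases that near-identical targets may share signal. Of the 11 targets, 5 match a mouse mature sequence in RefSeq.
UC1004787: tAAGGTGCatctagtgcagatag
UC1004786: tAAGGTGCatctagtgcagata
UC1004791: tAAGGTGCatctagtgcagttag
UC1004790: tAAGGTGCatctagtgcagtta
UC1004792: tAAGGTGCatctagtgctgttag
UC1004793: tAAGGTGCatttagtgcagata
UC1004796: tAAGGTGCatcttgtgtagtta
UC1004801: tGTGCAAAtccatgcaaaactga
UC1004797: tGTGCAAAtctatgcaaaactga
UC1004805: tGTGCAAAtccatgcaaaactcg
UC1004806: tGTGCAAAcccatgcaaaactga

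UC1004787 is miR-18a-5p over all 23 bases and UC1004786 lacks its last base. UC1004791, and UC1004790 which is 1 base shorter, differ from miR-18a-5p by A20T, where positions are counted from 1 at the 5′ end of the miRNA. UC1004792 is miR-18b-5p and carries A18T and A20T. UC1004793 differs by C11T, and UC1004796 by A13T, C17T and A20T. With miR-19b-3p as the reference, UC1004801 has no difference, UC1004797 is miR-19a-3p with C11T, UC1004805 carries G22C and A23G at its 3′ end, and UC1004806 carries T9C next to the seed. Probes whose targets share their start, the shorter within the longer, were read as 1 feature by the brighter probe. UC1004786 was thus merged with UC1004787 and UC1004790 with UC1004791, which left 5 features of the miR-18 seed and 4 of the miR-19 seed.

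Each probe was printed as 7 spots. No spot was saturated, and each array detected 309 to 467 probes, which here means that at least 50% of a probe's spots were well above background. The 75th percentile of signal over the 253 probes detected on every array ran from 2729 on sOVA host replicate 3 and 3591 on WT host replicate 2 to 15740 on naive replicate 2. Levels below are log2 intensity minus this percentile of the array. All 4 miR-19 features and 2 miR-18 features were detected on all 7 arrays, and 8 of the 9 features were tested. UC1004796 was detected on none of 7 arrays and had no test. Spots of a member probe on 1 array had a median SD between 0.0389 and 0.118 log2 units in the 10 detected probes. Of 4 tested miRNAs common in T or blood cells, whose summed level was 3.38 to 3.56 in naive cells, 2.01 to 2.63 in the WT host and 1.55 to 2.95 in the sOVA host, 1 passed: miR-181a-5p, lower in the WT host (-3.34, adjusted p = 0.013, limma). Both strands of miR-142a, detected on all 7 arrays, had changes of -1.26 to -1.68 without passing. Of 3 miRNAs known from activated T cells, miR-21a-5p passed in both hosts, at 1.01 and 0.72 in naive cells and at 3.36 to 4.34 afterwards. miR-155-5p and miR-146a-5p passed in the sOVA host only, and the hosts did not differ by the test (adjusted p = 0.574 and 0.449, limma). On sOVA host replicate 3 they stood at -0.95 and -0.38, apart from replicates 1 and 2 (1.39 and 1.81, and 1.70 and 1.89). Over all features 12.9% were called higher and 5.85% lower in the WT host, and 15.5% and 5.56% in the sOVA host. The myeloid marker miR-223-3p ran from -3.04 to -2.80 on the naive arrays, from -6.34 to -5.59 in the WT host and from -6.60 to -4.99 in the sOVA host. It was called lower in both hosts (-3.04 and -2.68, adjusted p = 0.0161 and 0.0221, limma). With 1 of 2 WT host and 2 of 3 sOVA host arrays detecting it, it entered the test only through the naive group. The erythroid marker miR-451a was at 0.94 on sOVA host replicate 3 and between -4.12 and -0.97 elsewhere, miR-144-3p was detected on none of 7 arrays and endothelial miR-126a-3p on 1. Of 5 tested epithelial miRNAs 2 were called lower in the WT host and 1 in the sOVA host, against 5.85% and 5.56% of all features. These were miR-200a-3p in both and miR-200b-3p in the WT host. Each was detected on 2 of 2 naive arrays and on no array of either host, so both entered the test only through the naive group. The untested miR-205-5p, detected on 2 of 7 arrays, read -9.29 and -10.59 in naive cells, -9.39 and -8.39 in the WT host and -4.87, -4.08 and -6.49 in the sOVA host. Its naive readings equal those of UC1004796, which no array detected, and its WT host readings lie next to those of UC1004796 (-9.39 and -8.42). The readings in these groups are therefore not measured levels. Its reading on sOVA host replicate 3 lay below the lowest detected level of that array, -5.20. With miR-205-5p, the summed epithelial level was -3.54 to -3.51 in naive cells, -4.64 to -4.31 in the WT host and -4.42 to -3.15 in the sOVA host. The part of other cells in the results below was not tested.

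Activation in the WT host was set against the naive state first. All 4 tested miR-18 features rose, by 3.88-fold to 4.35-fold, of which UC1004793 was tested only because both WT host arrays detected it. None of the 4 miR-19 features passed the test in either direction (adjusted p of at least 0.152, limma), nor was any at an unadjusted p under 0.05. miR-18a-5p (UC1004787) was at -3.22 and -3.07 on the naive arrays and at -1.35 and -0.95 in the WT host. Both WT host arrays lay above both naive arrays, and the difference was many times the spread within a group. From -3.15 ± 0.11 (SD, n = 2) to -1.15 ± 0.28 (SD, n = 2), the log2 change was 1.99 ± 0.31 (SE), or 3.98-fold with a 95% interval from 2.36 to 6.70 (adjusted p = 0.00964, limma). It was 1.87 within slide row 1 and 2.12 within slide row 2.

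The same size of change appeared in the variants of miR-18. UC1004791 went from -3.97 and -3.96 to -2.23 and -1.70, 4.01-fold (adjusted p = 0.0109, limma). miR-18b-5p (UC1004792), whose gene is on the X chromosome, went from -6.80 and -6.59 to -4.78 and -4.36. That was 4.35-fold, with a 95% interval from 2.33 to 8.12 (adjusted p = 0.0115, limma). UC1004793 went from -7.41 and -7.69 to -5.72 and -5.47, 3.88-fold (adjusted p = 0.013, limma). It was above background on 1 of 2 naive, 2 of 2 WT host and 2 of 3 sOVA host arrays. It thus entered the test only through the WT host, where its mean level was highest. Its fold is uncertain, and it was not called after quantile normalization (1.47, adjusted p = 0.137, limma). Since each of these targets differs from miR-18a-5p by 1 or 2 bases, they are not independent measurements and a change of miR-18b apart from miR-18a could not be told from them. Across all 342 features tested, 12.9% were called higher, 5.85% lower and 18.7% in either direction, 36.8% had an unadjusted p under 0.05, and the median change of all features was 0.27. By size of change the 4 miR-18 features ranked between 36th and 42nd from the highest.

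The miR-19 features stood elsewhere. miR-19b-3p (UC1004801) was at 1.82 and 1.63 on the naive arrays and at 1.42 and 1.50 in the WT host. Its groups did not overlap, but the gap was small against the fitted error. The change was -0.27 ± 0.31 (SE), with a 95% interval from -1.02 to 0.48 (adjusted p = 0.534, limma). This interval holds a fold change from 0.493 to 1.39, so a rise of the size of miR-18a lay outside it. miR-19a-3p (UC1004797) was at -0.94 and -0.99 in naive cells and at -0.54 and -0.16 in the WT host. Its change of 0.62 had a 95% interval from -0.14 to 1.37 (adjusted p = 0.209, limma). UC1004806 had a change of 0.25 (adjusted p = 0.518, limma).

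UC1004805, which differs from the miR-19b probe only in the last 2 bases, went from 1.57 and 1.39 to 0.51 and 0.23. Its change of -1.11 had a 95% interval from -2.27 to 0.05 and did not pass (adjusted p = 0.152, limma). It was called lower without sOVA host replicate 3 (adjusted p = 0.0223, limma), an array that enters this comparison only through the shared estimate of spread. Of the 4 miR-19 features 3 had groups that did not overlap, as had all 4 of the miR-18 features, and 75.7% of all features tested had such groups.

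The call of the miR-18 features rested on each naive and WT host array. With either naive array or WT host replicate 2 left out none of the 4 was called, with changes between 1.74 and 2.23 (adjusted p between 0.0722 and 0.101, limma), and without WT host replicate 1 only 2 were. Scaling over all probes instead (their 75th percentile), of which 309 to 467 per array were detected, gave changes of 1.44 to 1.61 with no call (adjusted p between 0.168 and 0.242, limma). That scaling moved the median of all features to -0.24. The change of miR-18a minus this median was 1.72 under both, a value that no scaling by a constant per array can move. It was 1.78 with quantile normalization and 1.54 with normexp background correction.

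The second comparison put cells activated in the sOVA host against naive cells. Again all 4 tested miR-18 features rose, now by 2.36-fold to 2.61-fold, and no miR-19 feature passed (adjusted p of at least 0.0731, limma), with 2 of the 4 at an unadjusted p under 0.05. miR-18a-5p was at -1.65, -2.18 and -1.82 on the sOVA host arrays, all of them above the naive arrays. The change was 1.26 ± 0.28 (SE), or 2.40-fold with a 95% interval from 1.49 to 3.87 (adjusted p = 0.0269, limma). Within slide rows 1 and 2 it was 1.31 and 1.25. Before scaling, its signal was 1272 and 1876 in naive cells, 3629 and 1854 in the WT host and 3142, 2456 and 775 in the sOVA host, so that the groups overlapped until the arrays were scaled.

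miR-18b-5p was at -4.86, -5.73 and -5.34 in the sOVA host, 2.60-fold above naive (adjusted p = 0.0332, limma), with 2 of 3 arrays detecting it. UC1004791 was at -2.53, -3.09 and -2.56, 2.36-fold above naive (adjusted p = 0.0333, limma). UC1004793 was at -5.69, -6.33 and -6.48, 2.61-fold above naive (adjusted p = 0.03, limma), again detected on 2 of 3 arrays. Of all features 15.5% were called higher, 5.56% lower and 21.1% in either direction, 43.0% had an unadjusted p under 0.05, the median change was 0.11, and the miR-18 features ranked between 53rd and 62nd from the highest. Scaling over all probes, to the median or by quantiles left none of the 4 called, with changes of 0.42 to 1.29. Without sOVA host replicate 3 all 4 were called, with changes of 1.16 to 1.54 (adjusted p between 0.015 and 0.0351, limma). Leaving out either naive array or sOVA host replicate 1 left none, and 2 were called without WT host replicate 1 or 2 and with normexp background correction.

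In the sOVA host miR-19b-3p was at 1.31, 1.00 and 0.66, below both naive arrays on all 3 arrays. Its change of -0.74 ± 0.28 (SE) had a 95% interval from -1.42 to -0.05 before adjustment and did not pass (adjusted p = 0.1, limma). miR-19a-3p, at -0.92, -1.51 and -1.18, overlapped the naive arrays and had a change of -0.24 (adjusted p = 0.54, limma). UC1004806 was at 0.02, -0.19 and -0.06 and had a change of -0.42 (adjusted p = 0.254, limma). UC1004805 was at 0.83, 0.30 and -0.57, the lowest level being that of the dimmest array, and had a change of -1.29 (adjusted p = 0.0731, limma). It was called lower without that array, sOVA host replicate 3, where the change was -0.92 (adjusted p = 0.0448, limma). The fit that blocks on slide row also called it (-1.39, adjusted p = 0.0257, limma). Groups did not overlap in all 4 miR-18 features, in 3 of the 4 miR-19 features and in 61.7% of all features. Both comparisons share the naive arrays, so they are not independent of each other.

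The third comparison was between the hosts. No member passed, none of the 342 features did (0.0%, with 41 or 12.0% at an unadjusted p under 0.05, limma), and all 8 tested members had a lower mean in the sOVA host. Over all features 65 were called without sOVA host replicate 3, 47 without the 2 dimmest arrays and 27 with the replicate number as a block, and no member was among the 65. miR-18a-5p had a change of -0.73 with a 95% interval from -1.42 to -0.04 (adjusted p = 0.39, limma) and miR-18b-5p one of -0.74 (adjusted p = 0.449, limma). miR-19a-3p had the largest of the 8, -0.86 with an interval from -1.55 to -0.16 (adjusted p = 0.331, limma), and miR-19b-3p one of -0.46 (adjusted p = 0.62, limma). In 6 of the 8 the hosts' arrays did not overlap, against 23.4% of all features. Members of a seed differ by few bases, so the 8 are not independent measurements. The change of UC1004805, -0.19, turned to 0.19 without sOVA host replicate 3. The median of all features was -0.15, so a lower mean in the sOVA host was not particular to the members. By mean level the order was WT host, sOVA host, naive for miR-18a and naive, WT host, sOVA host for miR-19b, and of these steps those of miR-18a from naive passed.

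The contrast of both seeds was read within each array, where any scaling by a constant drops out. The level of miR-18a-5p minus that of miR-19b-3p was -5.04 and -4.70 on the naive arrays, -2.77 and -2.45 in the WT host, and -2.96, -3.18 and -2.48 in the sOVA host. The value itself holds the brightness of each probe and says nothing of their relative abundance. A constant brightness drops out of its shift between arrays, but a probe's response that varies with the array does not. UC1004801 minus UC1004805, whose targets differ in the last 2 bases, was 0.25 and 0.24 on the naive arrays and 0.90 and 1.27 in the WT host. With UC1004805 in place of UC1004801 the shift was 3.10 in the WT host and 2.56 in the sOVA host. All 5 arrays of activated cells lay more than 1 log2 unit above both naive arrays. From -4.87 ± 0.24 (SD, n = 2) the ratio went to -2.61 ± 0.23 (SD, n = 2) in the WT host, a shift of 2.26 or 4.80-fold toward miR-18a. In the sOVA host it was -2.87 ± 0.36 (SD, n = 3), a shift of 2.00, still above the spread within groups. The exact two-sided permutation test gave p = 0.333 for the WT host and p = 0.2 for the sOVA host, the smallest that 2 against 2 and 2 against 3 arrays allow, so this test could not reach 0.05. The shift was 2.27 and 2.25 within slide rows 1 and 2 for the WT host and 1.97 and 2.22 for the sOVA host.

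Of the 15 alternatives, those that scale an array by a constant or leave out arrays of the other host cannot move this ratio. Quantile normalization gave the smallest shifts, 1.70 and 1.57, and the shift was 2.09 to 2.43 and 1.80 to 2.17 with 1 array left out (1.80 in the sOVA host without replicate 3). Array brightness differed between the groups, and its part in the shift was not tested.

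Other pairs gave shifts of the same direction. For miR-18a-5p against miR-19a-3p the ratio was -2.28 and -2.08 on the naive arrays, -0.82 and -0.79 in the WT host, and -0.73, -0.67 and -0.63 in the sOVA host. The arrays of a group lay close together, with shifts of 1.38 and 1.51 (exact permutation p = 0.333 and 0.2, again the smallest possible). Over all 16 pairs of a tested miR-18 and a tested miR-19 feature the shift was above 0 in 16 for each host, from 1.34 to 3.23 in the WT host and from 1.48 to 2.68 in the sOVA host. Groups of arrays did not overlap in any pair, but nor did they in 75.7% and 61.7% of all single features tested. The share over other pairs of features was not computed. Pairs share probes, so their number adds no replication. Between the hosts the same ratio of miR-18a to miR-19b shifted by -0.26 (exact permutation p = 0.4, the smallest possible being 0.2), and the 16 pairs ranged from -0.58 to 0.28, 5 of them above 0.

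The members of each seed also differed in how closely they followed each other over the 7 arrays. Among the 6 detected miR-18 probes Pearson's r ran from 0.95 to 1.00 over 15 pairs. Among the 4 miR-19 probes it ran from 0.05 to 0.91 over 6 pairs, lowest for UC1004805 with miR-19a-3p and highest for UC1004806 with miR-19a-3p. Between the seeds it ran from -0.70 to 0.57 over 24 pairs. These values describe 7 arrays that share 3 groups and their scaling. The miR-18 probes include UC1004786 with UC1004787 and UC1004790 with UC1004791, each pair the same target without and with its last base. Near-identical targets may share signal, and its part in these r values was not tested.

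Tested on its own, the 22-base miR-18a probe UC1004786 had rises of 3.40-fold in the WT host and 2.14-fold in the sOVA host (adjusted p = 0.0102 and 0.0324, limma). UC1004790, 1 base shorter than UC1004791, changed by 1.56 in the WT host (adjusted p = 0.0187, limma), and in the sOVA host its change of 0.96 did not pass (adjusted p = 0.0575, limma). The shorter probe of each pair had the smaller change in both hosts.

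The other arm of the same hairpin was measured too. miR-18a-3p (UC1004788), the passenger strand, went from -7.97 and -8.10 in naive cells to -5.71 and -5.19 in the WT host and to -6.17, -5.93 and -5.15 in the sOVA host. It rose by 2.58 ± 0.42 (SE, adjusted p = 0.0104, limma) and by 2.28 ± 0.38 (SE, adjusted p = 0.0143, limma) on the log2 scale. It was dim, being detected on 1 of 2 naive, 2 of 2 WT host and 1 of 3 sOVA host arrays. It thus entered the test only through the WT host, 1 of the groups where it was high. It was not called in either host when either naive array was left out or arrays were scaled over all probes (2.07 and 1.47, adjusted p = 0.06 and 0.0999, limma). In the WT host the call was also lost without WT host replicate 2 and with normexp correction (1.94, adjusted p = 0.0576, limma).

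Of the passenger strand of miR-19b on chromosome 14, miR-19b-1-5p (UC1004803), the level was -6.06 and -6.08 in naive cells, -6.75 and -6.56 in the WT host and -7.05, -7.20 and -7.30 in the sOVA host. It was detected on 2 of 2 naive and 1 of 2 WT host arrays, so it entered the test only through the naive group, where it was highest. It fell in the sOVA host by 1.11 ± 0.23 (SE, adjusted p = 0.023, limma), where it was detected on none of 3 arrays, so that no lower bound for the fall could be given. With normexp correction its change there was -0.18 (adjusted p = 0.788, limma), and it was not called without either naive array or without sOVA host replicate 1 or 2. In the WT host its change of -0.59 did not pass (adjusted p = 0.156, limma).

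Of 9 other guide strands of the cluster and its paralogs tested, 1 rose in each host and none fell, near the 12.9% and 15.5% of all features called higher. Their median change was 0.36 in the WT host and 0.00 in the sOVA host, against 0.27 and 0.11 over all features. The riser was miR-363-3p (UC1005544), the last miRNA of the X-linked cluster and of the miR-92 seed family, which went from -3.56 and -3.69 to -2.19 and -1.81 in the WT host and to -2.53, -2.47 and -2.40 in the sOVA host. Both groups of activated cells lay above the naive arrays. Its rise was 3.08-fold (adjusted p = 0.0108, limma) in the former and 2.22-fold in the latter (adjusted p = 0.023, limma), and was not called in either host without either naive array or when scaled to all probes or to the median. From the same transcript as miR-18a, miR-17-5p had changes of 0.51 and 0.00 (adjusted p = 0.23 and 1.0, limma). miR-20a-5p had changes of -0.20 and -0.72 (adjusted p = 0.618 and 0.0852, limma), and miR-92a-3p of -0.35 and -0.37 (adjusted p = 0.406 and 0.324, limma). Since the X-linked cluster holds miR-92a as well, the miR-92a-3p signal cannot be assigned to either transcript. miR-17-3p, the passenger strand of miR-17, had changes of 0.06 and -0.12 (adjusted p = 0.881 and 0.746, limma). Of 5 passenger strands tested, 1 was higher in each host and 1 was lower in the sOVA host, as described above, where 5.56% of all features were called lower.

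Among 334 tested features outside both seeds, the 5 whose level over the 7 arrays was most like that of miR-18a-5p by Pearson's r included miR-301a-3p (r = 0.976), miR-363-3p (r = 0.969) and miR-93-5p (r = 0.968). miR-301a-3p changed by 3.64 and 2.84 in the WT and sOVA hosts (adjusted p = 0.00172 and 0.00381, limma), and miR-93-5p by 0.70 and 0.50 without passing. The 5 most like miR-19b-3p included miR-19b-1-5p and miR-20a-5p (r = 0.914 for each), of which the former lies in the same hairpin and the latter between miR-19a and miR-19b-1 on chromosome 14. The remaining 2 and 3 features matched no mature mouse sequence in RefSeq. These r values describe likeness over 7 arrays and carry no test.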

How the data were processed

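Small RNA of 7 samples was measured on 1-colour Cy3 arrays. Per the file headers, Agilent Feature Extraction 9.5.1.1 made the deposited spot intensity, background-subtracted and detrended but not normalized between arrays, whereas the submitters' processing notes name version 10.6. The deposited log2 value table holds no member identifier and gave no value. Total RNA (250 ng) was Trizol-extracted, per the labels' protocols.

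Targets were read after removing the last 10 T and a leading G. Control and outlier spots were left out, spots were averaged as log2, and arrays were scaled to the 75th percentile of 253 probes, those that all arrays detected. The 1874 probes formed 1753 features, of which 342 (some group detected them on each of its arrays) were fitted in limma 3.58.1 (R 4.3.3; group means, 7 arrays, Benjamini-Hochberg threshold 0.05). Ratios of probes were compared by exact permutation (scipy 1.17.1). The array number limits the precision. Named features are all members, a cluster list, marker miRNAs and the 5 features most like miR-18a and miR-19b; members and lists were chosen with earlier results of these data known. miRNA names come from RefSeq sequences.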

Additional observations from a re-analysis of the deposited data

How the results depend on the processing

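The shift of miR-18a against miR-19b kept its direction under the alternatives that can move it (normexp, quantile normalization, arrays of the groups compared left out, and blocks where arrays are unbalanced), with leave-one-out ranges of 2.09 to 2.43 (WT host), 1.80 to 2.17 (sOVA host) and -0.46 to -0.10 (between hosts).

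Counts moved more, and the cause was not tested. Called miR-18 features, 4 in each host, became 0 in both with the 75th percentile of all probes. Testing only features detected on all 7 arrays left 2 miR-18 features tested, and 2 were called in both hosts. In the sOVA host they became 0 with median scaling and with quantile normalization, and 2 with normexp and with the 2 groups compared only. Leaving out 1 array gave 0 to 4 in each. Called miR-19 features, 0 in each host, became 1 (UC1004805, lower) in the WT host with the 2 groups compared only and in the sOVA host with slide row as a block, and 0 to 1 when 1 array was left out.

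Over all features, calls for the WT host went from 64 to 41 (normexp), 39 (percentile of all probes), 25 (detected on all arrays), 109 (slide row as a block), 124 (without the 2 dimmest arrays), 129 (2 groups only) and 17 to 158 (1 array left out). Those for the sOVA host went from 72 to 34 (detected on all arrays), 125 (slide row), 151 (without the dimmest) and 12 to 126 (1 array left out). Between hosts 0 became 47 without the dimmest arrays and 0 to 65 with 1 array left out (65 without sOVA host replicate 3).

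Directions turned for members that were not called: miR-19b in the WT host to 0.09 by quantiles, UC1004806 there to -0.26 and -0.02 by percentile of all probes and by median, and UC1004805 between hosts, with 1 array left out, to between -0.51 and 0.19 (0.19 without sOVA host replicate 3), to 0.05 without the dimmest arrays and to 0.19 with the replicate block. The passenger strand miR-19b-1-5p, not a member and not called in the WT host, turned there to 0.07 by normexp.

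Replicate numbers from the titles did not pair the samples: deviations of same-numbered arrays correlated at 0.19 for naive with WT host, but at 0.32 and -0.18 for naive with sOVA host and at 0.35 and -0.60 for the hosts. Arrays of the same slide row correlated at 0.18 to 0.61 in all 8 pairs and arrays of different rows at -0.61 to -0.18, values that mirror each other in groups of 2 and so are not independent. For naive with WT host, row and number give the same pairs. Where they differ, at sOVA host replicates 2 and 3, the sign went with the row. The 2 dimmest arrays both lie in row 2, so row and brightness could not be told apart there. With the replicate number as a block, calls were 139, 104 and 27 over all features in the 3 comparisons, 4 and 2 for the miR-18 features in the WT and sOVA host, and 1 for the miR-19 features in each. No deposited table value could be compared, since no member matched it by identifier. The alternatives for miR-18a-3p, miR-363-3p and miR-19b-1-5p were chosen after seeing the data.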

Other observations

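Probe pairs that differ only at the 3′ end of the target did not keep a constant ratio over the arrays. UC1004791 exceeded UC1004790, which is 1 base shorter, by 0.05 and 0.03 log2 units on the naive arrays, by 0.31 and 0.66 in the WT host and by 0.11, 0.19 and 0.69 in the sOVA host. UC1004787 exceeded UC1004786 by 0.00 and 0.03, by 0.17 and 0.30, and by 0.09, 0.12 and 0.32. UC1004801 exceeded UC1004805, which differs in the last 2 bases, by 0.25 and 0.24, by 0.90 and 1.27, and by 0.48, 0.71 and 1.23. In all 3 pairs the gap was smallest in naive cells and widest on WT host replicate 2 and sOVA host replicate 3, the dimmest arrays.

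Over the 28 pairs of probes detected on all arrays whose targets differ by 1 added 3′ base, the median gap was 0.09 and 0.11 on the naive arrays, 0.17 and 0.22 in the WT host and 0.15, 0.19 and 0.21 in the sOVA host, and 11 pairs had their widest gaps on those 2 arrays. The miR-18 pairs above, UC1004791 with UC1004790 and UC1004787 with UC1004786, are among the 28 and among the 11. The miR-19b to miR-19a gap went the other way, from 2.76 and 2.62 in naive cells to 1.95 and 1.66 in the WT host and 2.23, 2.52 and 1.85 in the sOVA host.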
